A study of Mus musculus with 9 samples.

Results

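The genes described here are the gp130 receptor chain Il6st, the further receptor chains Il6ra, Osmr and Lifr, the kinases Jak1 and Jak2, the transcription factor Stat3, the inhibitors Socs3 and Pias3, and the kinase gene Pim1. They were chosen by gene name, and these 10 genes are among 55401 in the deposited count table. All 10 passed the filter on low counts, as did 16762 genes in all. The libraries were made from poly(A) RNA of primary neonatal ventricular myocytes (NMVMs) of wild-type C57BL/6J mice, isolated on day 1 of life. Control cultures stayed at normal oxygen in complete medium with serum. Hypoxia cultures spent 6 h in an AnaeroPack chamber, in DMEM that held neither glucose nor serum. Hypoxia + rSRGN cultures had the same treatment with recombinant serglycin, a proteoglycan core protein, in the medium. The hypoxia groups differed from control in oxygen, glucose and serum together, so these cannot be told apart, whereas the hypoxia and hypoxia + rSRGN groups differed by the added protein. Each group had 3 libraries. Nothing in the labels says that the libraries of a group came from separate animals or isolations, so p-values measure only the spread between these libraries, which may be technical.

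Cytokines of the interleukin-6 family share the signal chain gp130. Ligands also bind further chains, such as the IL-6 receptor, the oncostatin M receptor or the LIF receptor, the last of which serves several ligands of the family, and the assembled complex activates JAK kinases, which phosphorylate gp130 and then STAT3. Phosphorylated STAT3 enters the nucleus and induces genes that include Socs3, whose product blocks gp130 and the JAKs, and Pim1, a serine/threonine kinase linked to survival. In the heart, gp130 and STAT3 are known for a protective role in cardiomyocytes under stress. The activity of the pathway is set by phosphorylation, and the values below are mRNA levels only.

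Total counts ranged from 21669017 to 22781557 in control, from 16583985 to 18148474 in hypoxia and from 16640239 to 20826701 in hypoxia + rSRGN. Levels are given as CPM, the counts per 1000000 counts of a library scaled by TMM, with mean ± SD and n = 3 per group. A gene was called changed at an adjusted p below 0.05 (Benjamini-Hochberg, over all genes tested) in the quasi-likelihood test of edgeR, and a fold change of at least 1.5. Cardiomyocyte markers summed to between 44589 and 54653 CPM in control, to between 3942 and 6122 CPM in hypoxia and to between 7794 and 8370 CPM in hypoxia + rSRGN. All 12 of these markers were called lower in hypoxia than in control, beside 25.1% of all genes. Between rSRGN and hypoxia, 12 of 12 had a positive log2 fold change and 10 were called higher with rSRGN, beside 2.27% of all genes. Fibroblast markers summed to between 11378 and 13430 CPM in control, to between 22260 and 25008 CPM in hypoxia and to between 25137 and 26150 CPM with rSRGN. Of these markers, 8 of 10 were called higher and 0 lower in hypoxia than in control, beside 26.4% and 25.1% of all genes. The cultures therefore held fibroblast transcripts beside those of the labelled cell type in every group. Macrophage markers summed to between 230 and 246 CPM in control, to between 24.4 and 27.0 CPM in hypoxia and to between 28.8 and 34.6 CPM with rSRGN. Endothelial markers summed to between 73.3 and 104 CPM in control, to between 49.9 and 65.1 CPM in hypoxia and to between 52.2 and 66.8 CPM with rSRGN, and 6 of 8 were called lower in hypoxia. Smooth muscle and pericyte markers summed to between 1462 and 1736 CPM in control, to between 2158 and 2477 CPM in hypoxia and to between 1952 and 2059 CPM with rSRGN, with 2 of 6 called higher and 1 lower in hypoxia. Neutrophil markers summed to at most 0.626 CPM, with Ly6g and Mpo at 0, and red cell markers to at most 0.591 CPM, with Hba-a2 at 0. In these bulk libraries fewer cells of a type and less RNA per cell cannot be told apart. The part of these marker lists in the levels of the pathway genes below, whether they rose or fell, was not tested.

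Transcripts of Stat3 and Lifr fell in hypoxia against control, and those of Pim1, Il6ra and Socs3 rose. Stat3 fell 2.53-fold and Lifr 2.17-fold, while Pim1 rose 2.10-fold, Il6ra 1.72-fold and Socs3 1.54-fold. In all, 5 of the 10 genes were called in hypoxia against control, beside 51.6% of all genes tested. Of the 10 genes, 3 rose and 2 fell, beside 26.4% of all genes that rose and 25.1% that fell. The share called among the 10 genes was therefore near that of all genes. The median log2 fold change of the 10 genes was 0.11, against 0.054 over all genes.

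With rSRGN against hypoxia, Pim1 rose 1.59-fold and was the single gene of the 10 to be called, beside 3.13% of all genes tested. That share rests on 525 genes, and 321 genes were called without the third hypoxia library. The share of all genes that rose was 2.27%, and the share that fell was 0.859%. Without the fold limit, 7 of the 10 genes passed an adjusted p of 0.05 in edgeR's quasi-likelihood test, and all 7 were higher with rSRGN. These were Stat3, Il6st, Il6ra, Osmr, Jak1, Jak2 and Pim1, and 10.5% of all genes passed this rule as higher. Of the 7, 3 missed an adjusted p of 0.05 when some libraries were left out. Osmr (adjusted p up to 0.112) missed it without the first or the third hypoxia library or the first or the second rSRGN library, Jak1 (up to 0.0546) without the first or the second rSRGN library, and Il6ra (0.107) without the first rSRGN library. Osmr also missed it with a filter on a total of at least 1 count. The median log2 fold change of the 10 genes was 0.32, against -0.029 over all genes. In hypoxia + rSRGN against control, 5 genes rose (Pim1, Il6ra, Osmr, Jak2 and Socs3) and 2 fell (Stat3 and Lifr), which made 7 of 10 called beside 48.8% of all genes. Of all genes, 24.1% rose and 24.7% fell in that comparison. The comparisons share libraries in pairs, so their values are given side by side.

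**Figure D1:**
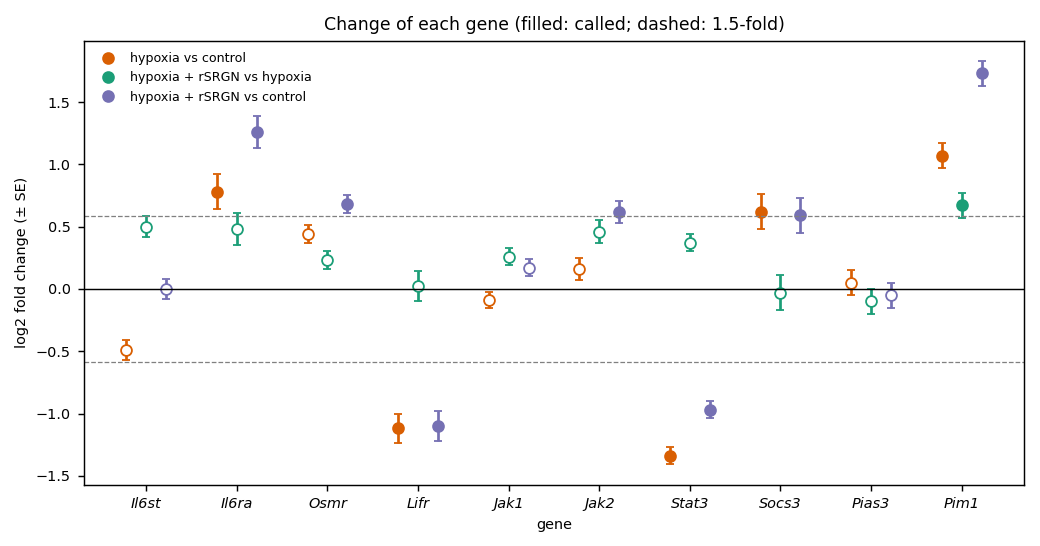
Log2 fold change with its standard error for each of the 10 genes in the 3 comparisons, from 1 edgeR fit over 9 libraries. Filled points passed the adjusted p and the 1.5-fold limit (dashed lines). Pim1 is the only filled point for hypoxia + rSRGN against hypoxia, at 0.67, and Stat3 lies lowest for hypoxia against control, at -1.34.

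Il6st (ENSMUSG00000021756.12, chromosome 13, 112464070 to 112510086, plus strand of GRCm38) encodes gp130 itself. Its level was 306, 317 and 338 CPM in the control libraries, 238, 247 and 197 CPM in hypoxia, and 327, 337 and 299 CPM in hypoxia + rSRGN. The 3 hypoxia libraries were the lowest of the 9, and the control and rSRGN libraries overlapped. The log2 fold change was -0.49 ± 0.083 (SE) in hypoxia against control (adjusted p = 1.59e-05) and 0.50 ± 0.083 with rSRGN against hypoxia (adjusted p = 4.16e-04), both 1.41-fold and short of the fold limit. Against control, Il6st with rSRGN differed by 0.00 on the log2 scale (adjusted p = 0.972). Each SE was computed from the fold change and the F statistic of edgeR's quasi-likelihood test.

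Il6ra (ENSMUSG00000027947.11, chromosome 3, 89864059 to 89913196, minus strand), the chain that binds interleukin-6, had the lowest level per length of the 10 genes in all 3 groups. It was at 7.73, 7.32 and 9.42 CPM in control, at 14.7, 13.6 and 13.7 CPM in hypoxia, and at 22.8, 19.2 and 16.7 CPM with rSRGN. The 3 groups did not overlap. Il6ra rose in hypoxia by 0.78 ± 0.14 (log2 fold change ± SE, adjusted p = 2.39e-05). With rSRGN it was higher than in hypoxia by a further 0.48 ± 0.13 (adjusted p = 0.014), which did not reach the fold limit. Leaving out the third rSRGN library gave 0.587, which passes it. Of the exon bases counted for Il6ra, 242 (2.80%) are shared with Gm42809 on the opposite strand, and the counting used no strand.

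Osmr (ENSMUSG00000022146.12, chromosome 15, 6813577 to 6874969, minus strand) encodes the oncostatin M receptor, which pairs with gp130. Its level was 52.2, 53.1 and 54.9 CPM in control, 70.5, 75.6 and 71.8 CPM in hypoxia, and 85.0, 87.1 and 84.2 CPM with rSRGN. Every hypoxia library lay above every control library, and every rSRGN library above every hypoxia library. The log2 fold change was 0.44 ± 0.071 in hypoxia (adjusted p = 9.70e-06) and 0.23 ± 0.071 with rSRGN against hypoxia (adjusted p = 0.0264), neither of which reached 1.5-fold. Against control, Osmr rose with rSRGN by 0.68 ± 0.071, or 1.60-fold (adjusted p = 2.06e-08).

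Lifr (ENSMUSG00000054263.12, chromosome 15, 7090614 to 7197489, plus strand) encodes the receptor chain for leukemia inhibitory factor, which other ligands of the family also use. Its level was 58.2, 56.9 and 58.0 CPM in control, 32.9, 21.8 and 25.1 CPM in hypoxia, and 28.4, 29.0 and 23.3 CPM with rSRGN. All 6 hypoxic libraries lay below all control libraries, and the hypoxia and rSRGN groups overlapped. In hypoxia, Lifr fell by 1.12 on the log2 scale (SE 0.12, adjusted p = 2.20e-08), and with rSRGN it differed from hypoxia by 0.02 ± 0.12 (adjusted p = 0.954). Lifr was therefore lower than control with and without the added protein.

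**Figure D2:**
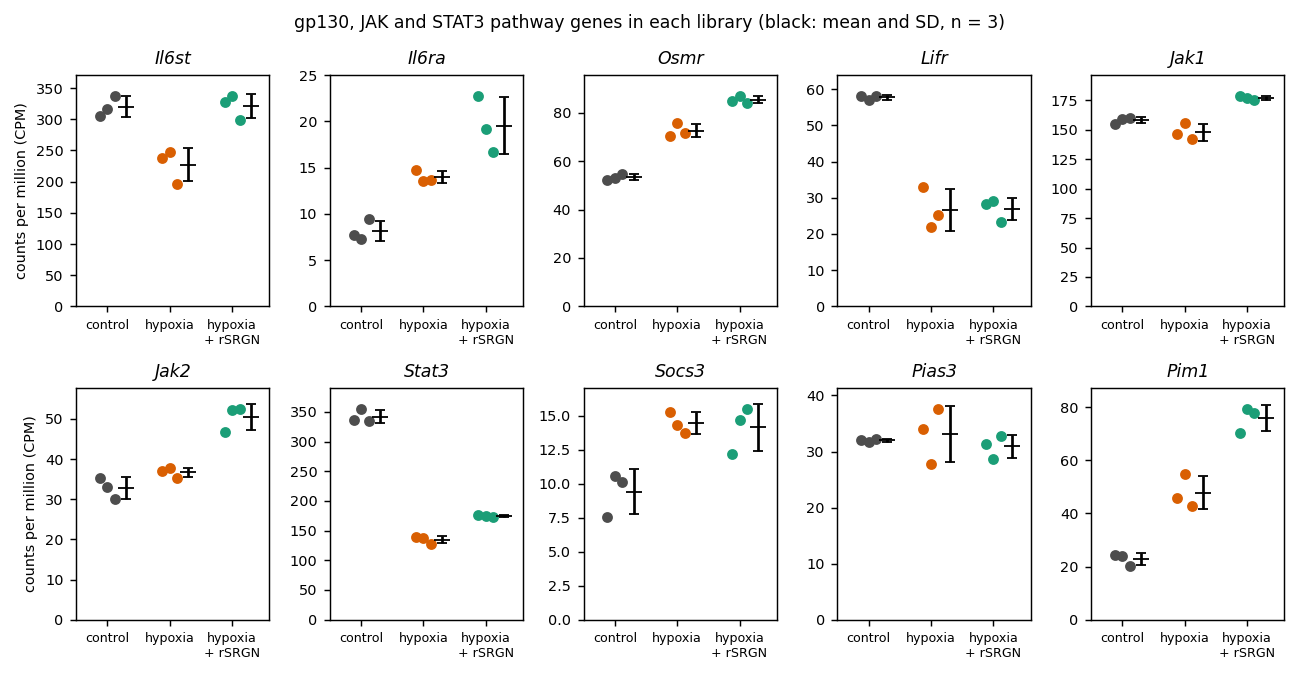
Level in CPM (linear axes from 0) of each of the 10 genes in each library, by group, with the mean and SD of 3 libraries in black. Stat3 falls from 342 CPM in control to 135 CPM in hypoxia and lies at 174 CPM with rSRGN, while Pim1 steps up from 22.8 to 47.9 and 75.9 CPM.

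The further receptor chains Osmr, Lifr and Il6ra were also set against gp130. Levels were compared between genes as CPM per kilobase of exon, and the ratio of each of these chains to Il6st was taken within each library. The Osmr ratio averaged 0.153 in control (from 0.149 to 0.157), 0.295 in hypoxia (from 0.271 to 0.334) and 0.244 with rSRGN (from 0.237 to 0.258). The Lifr ratio averaged 0.186 in control (from 0.177 to 0.196), 0.121 in hypoxia (from 0.0908 to 0.142) and 0.0862 with rSRGN (from 0.0802 to 0.0895). The Il6ra ratio averaged 0.0326 in control (from 0.0296 to 0.0358), 0.0799 in hypoxia (from 0.0709 to 0.0896) and 0.0782 with rSRGN (from 0.0719 to 0.0894). In control, the Lifr ratio was above the Osmr ratio in every library, and in hypoxia and with rSRGN it was below the Osmr ratio in every library.

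The log2 differences of the ratios between hypoxia and control were 0.94 for Osmr, -0.64 for Lifr and 1.29 for Il6ra. Between hypoxia + rSRGN and hypoxia they were -0.27 for Osmr, -0.47 for Lifr and -0.03 for Il6ra. Il6st, the shared denominator, itself fell by 0.49 on the log2 scale in hypoxia and rose by 0.50 with rSRGN against hypoxia. In the latter comparison Osmr rose by 0.23 and Il6ra by 0.48, and Lifr differed by 0.02. The ratios share Il6st and the libraries, so the 9 comparisons are not independent. Groups did not overlap in 8 of the 9 comparisons, the exception being Il6ra with rSRGN against hypoxia (two-sided exact permutation p = 0.9). The other 8 had a two-sided exact permutation p of 0.1, which is the smallest that 3 against 3 libraries can give, and an adjusted exact p of 0.113 over the 9 comparisons. This test cannot reach 0.05 with 3 against 3 libraries.

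**Figure D3:**
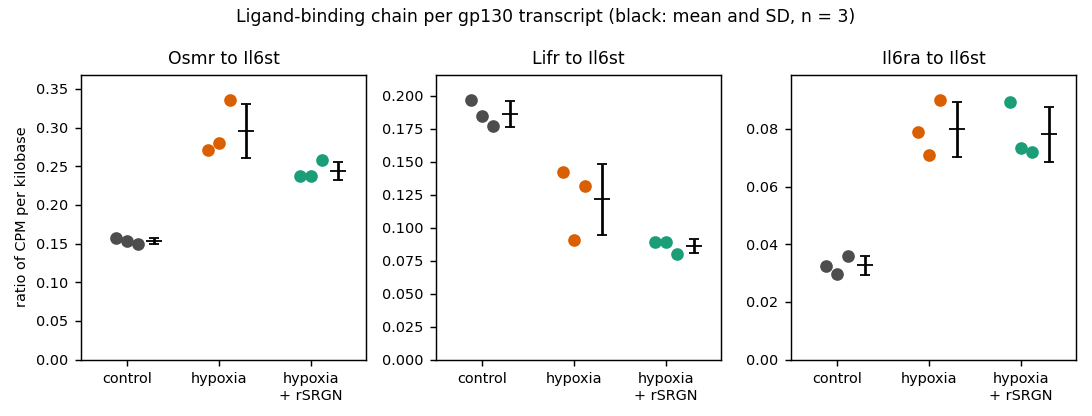
Ratio of Osmr, Lifr and Il6ra to Il6st (each in CPM per kilobase, linear axes from 0) in each library, with the mean and SD of 3 libraries per group in black. In control the mean Osmr ratio is 0.153 and the mean Lifr ratio 0.186, and in hypoxia they are 0.295 and 0.121.

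The JAK kinases sit on the tails of the receptor chains, and neither Jak1 nor Jak2 was called in hypoxia. Jak1 (ENSMUSG00000028530.14, chromosome 4, 101152367 to 101265282, minus strand) was at 155, 159 and 160 CPM in control, at 146, 156 and 142 CPM in hypoxia, and at 179, 177 and 175 CPM with rSRGN. The control and hypoxia groups overlapped, and all 3 rSRGN libraries were above the other 6. The log2 fold change of Jak1 was -0.09 ± 0.067 in hypoxia (adjusted p = 0.216) and 0.26 ± 0.067 with rSRGN against hypoxia (adjusted p = 0.0109), or 1.20-fold.

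Jak2 (ENSMUSG00000024789.13, chromosome 19, 29251828 to 29313080, plus strand) was at 35.3, 33.0 and 30 CPM in control, at 37.0, 37.7 and 35.3 CPM in hypoxia, and at 46.7, 52.2 and 52.5 CPM with rSRGN. Again the 3 rSRGN libraries stood above the other 6, and the other groups overlapped at 35.3 CPM. The log2 fold change was 0.16 ± 0.091 in hypoxia (adjusted p = 0.118) and 0.46 ± 0.09 with rSRGN against hypoxia (adjusted p = 0.00139), or 1.38-fold. Against control, Jak2 rose with rSRGN 1.54-fold (adjusted p = 2.21e-06), and without the third control library its log2 fold change of 0.555 did not reach the fold limit. Neither of the other JAK kinases, Jak3 and Tyk2, was called in any comparison by edgeR's quasi-likelihood test, with 0 at an unadjusted p under 0.05 and 0 called by DESeq2. Of all genes, 51.6% were called in hypoxia against control, 3.13% with rSRGN against hypoxia and 48.8% with rSRGN against control. The log2 fold changes of Jak3 and Tyk2 lay between -0.13 and 0.00.

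Stat3 (ENSMUSG00000004040.16, chromosome 11, 100885098 to 100939540, minus strand) had the largest fall of the 10 genes in hypoxia. It was at 336, 355 and 335 CPM in control, at 140, 137 and 128 CPM in hypoxia, and at 176, 174 and 173 CPM with rSRGN. The 3 groups did not overlap, and the rSRGN libraries lay between the other groups, nearer to hypoxia. In hypoxia, Stat3 fell by 1.34 on the log2 scale (SE 0.068, adjusted p = 8.86e-14). With rSRGN it was 1.29-fold higher than in hypoxia (log2 fold change 0.37 ± 0.068, adjusted p = 9.63e-04), short of the fold limit, and 1.96-fold lower than in control (adjusted p = 2.27e-11). Cardiomyocyte and macrophage markers were lower in hypoxia as well, and cardiomyocyte markers were higher with rSRGN than in hypoxia, with the sums given above. Their part in the Stat3 level was not tested.

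The other STAT genes gave 2 falls among 4 tested genes in hypoxia, with 0 rises, beside 25.1% of all genes that fell and 26.4% that rose. Stat5b, a mediator of growth hormone and prolactin signals, fell 1.76-fold, from 55.3 to 31.4 CPM (adjusted p = 2.27e-07). Its neighbour Stat5a fell 1.54-fold, from 21.6 to 14 CPM (adjusted p = 1.47e-04), and leaving out the second control library gave a log2 fold change of -0.572 and the first hypoxia library -0.566, both short of the fold limit. Stat3 and Stat5a share 72 exon bases on opposite strands, 0.756% of the exon bases of Stat3. With rSRGN against hypoxia, 0 of the 4 STAT genes were called by edgeR's quasi-likelihood test, beside 3.13% of all genes, and 0 by DESeq2. The 1 gene at an unadjusted p under 0.05 was Stat2. It was lower with rSRGN by 0.35 ± 0.12 on the log2 scale (adjusted p = 0.0398), short of the fold limit. Against control with rSRGN, Stat5b fell 1.57-fold and Stat5a 1.52-fold. Leaving out the second rSRGN library gave -0.574 for Stat5b and -0.495 for Stat5a on the log2 scale, so neither reached the limit there, and Stat5a also missed it without the second control library (-0.538) or the first rSRGN library (-0.573).

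Socs3 (ENSMUSG00000053113.3, chromosome 11, 117966079 to 117970047, minus strand), the feedback inhibitor of gp130, was at 7.55, 10.6 and 10.1 CPM in control, at 15.3, 14.3 and 13.7 CPM in hypoxia, and at 12.2, 14.7 and 15.5 CPM with rSRGN. All 6 hypoxic libraries lay above the control libraries, and the hypoxia and rSRGN groups overlapped. Socs3 rose in hypoxia by 0.62 ± 0.14 (adjusted p = 4.17e-04), which lies just past the fold limit. Without the first control library the log2 fold change was 0.461, and without the first hypoxia library 0.575, so that the gene was no longer called. With rSRGN it differed from hypoxia by -0.03 ± 0.14 (adjusted p = 0.926) and rose against control by 0.59 ± 0.14 (adjusted p = 6.60e-04). That last call was lost without the first control library (0.445), the second rSRGN library (0.561) or the third rSRGN library (0.517).

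Pias3 (ENSMUSG00000028101.18, chromosome 3, 96696384 to 96706070, plus strand) encodes a protein inhibitor of activated STAT3. Its level was 32.0, 31.7 and 32.2 CPM in control, 34.1, 27.7 and 37.6 CPM in hypoxia, and 31.3, 28.6 and 32.8 CPM with rSRGN. The groups overlapped in all 3 comparisons. Its log2 fold change was 0.05 ± 0.1 in hypoxia (adjusted p = 0.674) and -0.10 ± 0.1 with rSRGN against hypoxia (adjusted p = 0.566). The spread of Pias3 among hypoxia libraries, an SD of 4.99 CPM, was wider than either difference between means.

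Of 15 other inhibitors of JAK-STAT signalling tested, 4 fell (26.7%) and 0 rose in hypoxia, beside 25.1% of all genes that fell and 26.4% that rose, so the share that fell was near that of all genes. Pias1, a SUMO ligase of the PIAS family, was at 45.0, 45.0 and 44.6 CPM in control, at 21.9, 18.1 and 15.8 CPM in hypoxia and at 15.4, 17 and 18.3 CPM with rSRGN. It fell 2.41-fold in hypoxia (adjusted p = 8.11e-10) and 2.66-fold with rSRGN against control (adjusted p = 1.74e-10). Socs4, a SOCS protein known from EGF receptor signalling, fell 1.70-fold in hypoxia, from 40.4 to 23.8 CPM (adjusted p = 8.29e-07). The other 2 that fell were Ptpn11, the phosphatase SHP2, by 0.72 on the log2 scale, and Socs7, by 0.66.

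Of these 15 inhibitors, 1 rose and 1 fell with rSRGN against hypoxia, beside 2.27% of all genes that rose and 0.859% that fell. Without the fold limit, 6 of the 15 passed an adjusted p of 0.05 in edgeR's quasi-likelihood test, beside 16.6% of all genes. Of these 6, 5 were higher, beside 10.5% of all genes, and Ptpn6 was lower. Socs5 was at 53.2, 44.8 and 51.3 CPM in control, at 49.8, 55.8 and 44.2 CPM in hypoxia, and at 84.1, 85.8 and 74.4 CPM with rSRGN. All rSRGN libraries were above the other 6, and Socs5 rose 1.63-fold against hypoxia (adjusted p = 5.96e-05) and 1.64-fold against control (adjusted p = 4.70e-07). Ptpn6, the phosphatase SHP1 of blood cells, fell 2.77-fold against hypoxia (adjusted p = 0.00645) and 2.68-fold against control (adjusted p = 0.00101). Its level was low, between 2.03 and 2.42 CPM in the 6 libraries without rSRGN and at 0.417, 1.16 and 0.792 CPM with rSRGN, which corresponds to 7, 24 and 15 counts. Against control with rSRGN, 2 of the 15 inhibitors rose and 3 fell, beside 24.1% and 24.7% of all genes. Of the called genes the largest rise was that of Sh2b3, an adaptor that restrains JAK2, at 1.74-fold (adjusted p = 2.25e-07).

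Pim1 (ENSMUSG00000024014.8, chromosome 17, 29490753 to 29496112, plus strand) had the largest rise of the 10 genes in hypoxia and the largest with rSRGN. It was at 24.3, 24.0 and 20.1 CPM in control, at 45.8, 54.8 and 43.0 CPM in hypoxia, and at 70.3, 79.4 and 78.0 CPM with rSRGN. The 3 groups did not overlap. Pim1 rose by 1.07 ± 0.10 in hypoxia (adjusted p = 3.84e-09), by 0.67 ± 0.097 with rSRGN against hypoxia (adjusted p = 1.50e-04) and by 1.73 ± 0.10 with rSRGN against control, or 3.33-fold (adjusted p = 1.06e-12). It was called in the 3 comparisons under each of the 19 alternatives. Of the exon bases counted for Pim1, 488 (14.5%) are shared with Gm26885 on the opposite strand. Gm26885 itself had a log2 fold change of 1.59 in hypoxia against control (adjusted p = 0.013) and -0.31 with rSRGN against hypoxia (adjusted p = 0.734), and without strand the reads of both genes cannot be told apart over the shared bases.

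The order of the per-length levels differed between groups. In control, Stat3 was highest at 35.9 CPM per kilobase, followed by Il6st at 28.8 and Jak1 at 21.9, and these 3 did not overlap. Pias3 at 8.16, Pim1 at 6.78, Jak2 at 6.51, Lifr at 5.35, Osmr at 4.41, Socs3 at 3.26 and Il6ra at 0.944 CPM per kilobase followed, and of these neighbours only Pim1 and Jak2 overlapped. In hypoxia, Jak1 and Il6st overlapped at 20.5 CPM per kilobase, and Pim1 and Stat3 overlapped below them at 14.2. Pias3 at 8.46 and Jak2 at 7.28 overlapped in turn, and Osmr at 6.00, Socs3 at 5.0, Lifr at 2.47 and Il6ra at 1.62 CPM per kilobase did not. With rSRGN the order was Il6st at 28.9, Jak1 at 24.5, Pim1 at 22.6, Stat3 at 18.3, Jak2 at 10.0, Pias3 at 7.88, Osmr at 7.05, Socs3 at 4.90, Lifr at 2.50 and Il6ra at 2.26 CPM per kilobase, where only Lifr and Il6ra overlapped. Per length, Stat3 thus stood above Il6st, Jak1 and Pim1 in control and below all of them with rSRGN. The length is that of all annotated exons of a gene, and the transcripts expressed were not determined. Without the division by length, Stat3 at 174 CPM with rSRGN lay above Pim1 at 75.9, near Jak1 at 177 and below Il6st at 321.

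Of 9 ligand genes of the family, 6 passed the filter, and 5 of these rose and 0 fell in hypoxia against control, beside 26.4% of all genes that rose and 25.1% that fell. The median log2 fold change of the 6 ligands was 1.70, against 0.054 over all genes. Cntf, with 5, 4 and 2 counts in control, passed the filter only through the hypoxic groups and so had to differ, and it is part of both values. Il6, the founding ligand, was at 1.30, 1.58 and 0.821 CPM in control, at 6.71, 7.45 and 6.89 CPM in hypoxia, and at 7.51, 6.41 and 6.50 CPM with rSRGN. It rose 5.63-fold in hypoxia (adjusted p = 1.64e-09) and did not overlap with control in any hypoxic library. Il11, interleukin-11, was at 0.944, 0.858 and 0.773 CPM in control and at 1.72, 3.70 and 3.01 CPM in hypoxia, a rise of 3.24-fold (adjusted p = 7.53e-05).

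Lif, the ligand of the receptor chain that fell, was at 12, 10.3 and 10.1 CPM in control, at 33.1, 40.2 and 31.3 CPM in hypoxia, and at 45.8, 42.5 and 46.9 CPM with rSRGN. It rose 3.23-fold in hypoxia (adjusted p = 9.80e-12) and 4.17-fold with rSRGN against control (adjusted p = 3.56e-13). All rSRGN libraries lay above all hypoxia libraries, by 1.29-fold on average (adjusted p = 0.0184), short of the fold limit. The other ligands that rose in hypoxia were Clcf1 by 1.70 and Cntf by 2.69 on the log2 scale, Cntf at a mean of only 1.12 CPM in hypoxia. Ctf1, cardiotrophin-1, was at 3.34 CPM in control and 3.52 CPM in hypoxia (adjusted p = 0.786). The genes Osm, Ctf2 and Il27 did not pass the filter, and Osm had at most 2 counts in a library. With rSRGN against hypoxia, 0 of the 6 ligands were called by edgeR's quasi-likelihood test, beside 3.13% of all genes. In that test 1 had an unadjusted p under 0.05 (Lif), and 0 were called by DESeq2.

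Of 6 other receptors of the family, 3 passed the filter and 2 of them rose in hypoxia, beside 26.4% of all genes. Il11ra1, the interleukin-11 receptor, was at 91.7, 92.6 and 103 CPM in control and at 172, 148 and 177 CPM in hypoxia, a rise of 1.73-fold (adjusted p = 7.07e-09). Il27ra, which pairs with gp130 in the receptor of interleukin-27, rose 2.09-fold, from 2.72 to 5.69 CPM (adjusted p = 1.97e-04). Lepr, the leptin receptor, whose long form is related to gp130, was called with rSRGN against hypoxia at 2.07-fold (adjusted p = 0.0422), from 14 to 26 counts per library in hypoxia to between 34 and 59 with rSRGN. The Lepr call was lost without the third control library, the first hypoxia library, the third hypoxia library, the first rSRGN library or the second rSRGN library, with log2 fold changes from 0.852 to 1.06, and with the replicate number as a block (adjusted p = 0.059). Against control it was 1.89-fold (adjusted p = 0.0202) and lost without the second control library (0.708), the first rSRGN library (0.86) or the second rSRGN library (0.78).

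**Figure D4:**
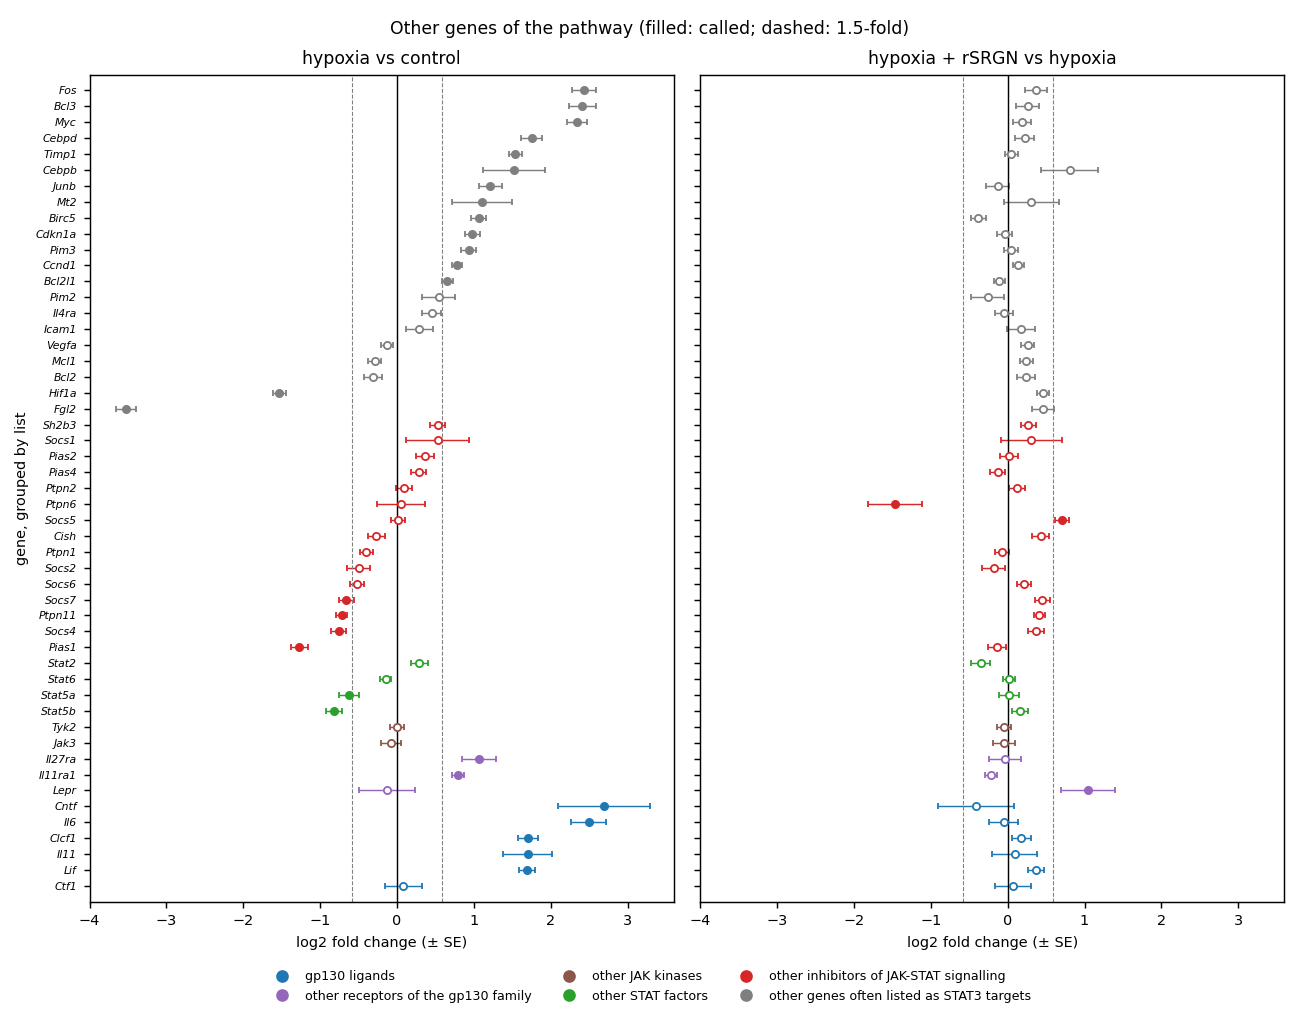
Log2 fold change with its standard error of the tested genes in 6 lists of other pathway genes, for hypoxia against control (left) and hypoxia + rSRGN against hypoxia (right), sorted within each list by the left panel. Filled points passed the adjusted p and the 1.5-fold limit (dashed lines). On the left 5 of 6 ligands and 13 of 21 STAT3 target genes are filled to the right of 0, and on the right the filled points are Lepr, Socs5 and Ptpn6.

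Among 21 tested genes that are often listed as STAT3 targets, 13 rose and 2 fell in hypoxia, beside the 26.4% and 25.1% of all genes given above, and the median log2 fold change of the list was 0.93, against 0.054 over all genes. Fos, an immediate early transcription factor, was at 5.53, 6.64 and 7.68 CPM in control, at 36.4, 44.1 and 26.3 CPM in hypoxia, and at 41.5, 48.0 and 48.8 CPM with rSRGN. It rose 5.39-fold in hypoxia (adjusted p = 5.66e-12). Bcl3, an atypical member of the IκB family, was at 1.48, 2.26 and 1.59 CPM in control, at 9.08, 10.3 and 9.15 CPM in hypoxia, and at 12.6, 10.5 and 11.1 CPM with rSRGN, a rise in hypoxia of 5.32-fold (adjusted p = 9.79e-11). These genes are also known as targets of other factors, and several, such as Fos, Myc and Junb, are known to respond to many stimuli within hours. The call of Mt2, a metallothionein, was lost without the second control library (log2 fold change 0.742) or the first hypoxia library (0.876).

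The 2 genes of this list that fell were Fgl2 and Hif1a. Fgl2, a fibrinogen-like protein made by macrophages among other cells, fell 11.5-fold, from 162 CPM in control to 14.1 CPM in hypoxia (adjusted p = 5.42e-16). Markers of cardiomyocytes (12 of 12) and endothelial cells (6 of 8) were also called lower in hypoxia, beside 25.1% of all genes. So were those of macrophages (8 of 8 tested), although 4 of these (Adgre1, C1qa, C1qb and Ptprc) passed the filter only through control and so had to differ. The part of these markers in the Fgl2 level was not tested. Hif1a, the oxygen-regulated subunit of the hypoxia-inducible factor, was at 364, 318 and 341 CPM in control, at 115, 135 and 105 CPM in hypoxia, and at 166, 165 and 156 CPM with rSRGN. It fell 2.88-fold in hypoxia (adjusted p = 3.81e-13) and was 2.10-fold lower than control with rSRGN (adjusted p = 1.65e-10). Vegfa, a textbook target of that factor, was at 204 CPM in control and 187 CPM in hypoxia (log2 fold change -0.13 ± 0.081, adjusted p = 0.166). The survival genes Mcl1 and Bcl2 had log2 fold changes of -0.29 and -0.31, within the fold limit, and Bcl2l1 rose by 0.65.

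With rSRGN against hypoxia, 0 of these 21 genes were called by edgeR's quasi-likelihood test, beside 3.13% of all genes, and 0 by DESeq2. In edgeR's test 7 had an unadjusted p under 0.05. Without the fold limit, 4 passed an adjusted p of 0.05, beside 16.6% of all genes. Of these, 3 were higher (Hif1a, Fgl2 and Vegfa), beside 10.5% of all genes, and Birc5 was lower (log2 fold change -0.38 ± 0.095, adjusted p = 0.00849). The 21 genes had a median log2 difference of 0.19, where that of all genes was -0.029. Cebpb, an acute phase transcription factor, had the largest difference, at 0.81 ± 0.37 (adjusted p = 0.143), and its levels of 20.3, 59.6 and 91.7 CPM with rSRGN and of 32.4, 53.7 and 12 CPM in hypoxia overlapped widely. Against control, 12 of the 21 rose and 2 fell with rSRGN, beside 24.1% and 24.7% of all genes, and Fos was 6.98-fold and Bcl3 6.39-fold higher.

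Promoter sequences are shown for the genes that rose, since STAT3, AP-1 and the hypoxia-inducible factor bind known letters. All 10 genes matched RefSeq promoter windows of build GRCm38.p6, which hold 250 bases before and 50 bases after a start site, with 13 windows in all. The STAT motif TTCNNNGAA, which reads alike on both strands, was in 1 of the 13 windows, that of Socs3, beside 8.30% of 32851 mouse windows. The motif starts 154 bases before the start site and is in capitals in this stretch of chr11:117969502-117969531 (minus strand).
Socs3: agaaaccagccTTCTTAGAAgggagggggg

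The core of the hypoxia response element was searched as ACGTG or GCGTG on both strands, and was in 7 of the 13 windows (53.8%), beside 43.8% of all windows. ACGTG itself was found in the Il6ra window and in the second of the Pim1 windows, beside 19.6% of all windows, and in both genes it forms a palindrome, so that the matches on the 2 strands overlap. The match on 1 strand is in capitals. The Il6ra stretch is chr3:89913204-89913233 (minus strand) and the Pim1 stretch chr17:29493014-29493043 (plus strand).
Il6ra: ggctgctgtgtgtCACGTgcatgtgggaag
Pim1: tgtaaacaggaatCACGTggtctgaaacca

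The AP-1 motif TGANTCA, which the Fos protein binds with Jun partners, was in 1 of the 13 windows, that of Osmr, beside 7.81% of all windows. Of the other genes that rose, only the windows of Il6, Lif, Fos and Bcl3 were searched. No rule set this choice, and other genes that rose, such as Il11 and Clcf1, were not searched, so no share is drawn from these windows. The AP-1 motif was in those of the ligands Il6 and Lif and not in those of Fos and Bcl3, and none of these 4 windows held the STAT motif or ACGTG, while GCGTG was in those of Lif and Fos. The stretches are chr15:6874293-6874322 (minus strand) for Osmr, chr5:30012864-30012893 (plus strand) for Il6 and chr11:4257328-4257357 (plus strand) for Lif, with the motif in capitals.
Osmr: ttgccccgtagtTGATTCAtagctggggcg
Il6: cTGAGTCActtttaaagaaaaaaaagaaga
Lif: cccagtcagctgTGACTCAggccatagtgg

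The Pim1 and Stat3 windows had no match to the STAT motif, which says only that these letters are not in these windows. A match is a description of the sequence, and binding was not measured.

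The genes most like Stat3 over the 9 libraries were Klhdc10, Ypel2 and Dlc1, with root mean square differences of 0.051, 0.053 and 0.057 in log2(CPM + 0.5), each gene centred on its mean, among 14249 genes compared. Stat3 itself varied by 0.56 on this scale, and the nearest of the other 9 genes was Lifr at 0.21, which ranked only 701 among the 14249. The genes most like Socs3 were Olfr1372-ps1 (at a mean of only 1.7 CPM), Fkbp5 and Stard13, at 0.089, 0.091 and 0.095, against a variation of 0.31 for Socs3 itself. The nearest of the other members was Osmr at 0.18, which ranked only 659 among the 14249.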

How the data were processed

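The RNA of 9 cultures in 3 groups was sequenced on an Illumina NovaSeq instrument, and each library was grouped by its labels. The authors deposited whole-number counts per gene. Per the file headers they were made with featureCounts 2.0.1 on exons of GENCODE release 25 (GRCm38), for read pairs and without a strand option, and the submitters' processing notes name HISAT2. All columns of counts were used.

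Counts were fitted in R 4.3.3 with edgeR 4.0.16 (filterByExpr, TMM, a mean per group over 9 libraries) and tested with the quasi-likelihood test and Benjamini-Hochberg adjustment. The SE of a log2 fold change was its size divided by the square root of F. CPM used the TMM-scaled library sizes, and exon lengths came from the deposited table. The script was tested on simulated data. The alternatives tried were DESeq2 1.42.0 as the tool, other scalings (RLE, library size alone, TMM without mitochondrial genes), other filters (a total of at least 1 count, or 10 counts in each of the libraries), other thresholds (unadjusted p, or no limit on fold), a fit to the compared groups alone, a block for replicate number, and removal of each library in turn.

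The 10 genes and the lists were chosen with earlier results of these data known. The other genes named are, per list and comparison, up to 2 called genes with the largest rise and up to 2 with the largest fall at a mean of at least 1 CPM, and the 3 genes most like Stat3 and Socs3. Further genes of the lists were named after their values were seen. Some genes of the pathway are not reported here and were left out of the lists and their counts. Every pair of libraries in a group differed by more than sampling noise (chi-square per degree of freedom from 3.81 to 14.6).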

Additional observations from a re-analysis of the deposited data

How the results depend on the processing

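The log2 fold changes of the 10 genes gave 570 values under the alternatives, of which 533 kept their direction and side of the threshold, and those of the genes called in the 6 other pathway lists 1115, of which 1095 did. Genes of these lists that were not called were not run. Calls lost when a library was left out are given above with each gene. With a filter on a total of at least 1 count, Socs3 was no longer called (0.565 in hypoxia and 0.549 with rSRGN against control), nor was Jak2 with rSRGN against control (0.581). Stat5a was not called by library size alone (-0.557 in hypoxia and -0.554 with rSRGN against control), nor, with rSRGN against control, in a fit of only the groups compared (-0.584). With rSRGN against hypoxia, 7 of the 10 genes were called with no fold limit, and 1 to 2 when a library was left out (2 without the third rSRGN library). Of all genes, 525 were called there, 899 at the unadjusted p, 2790 with no fold limit, and 321 to 699 when a library was left out (321 without the third hypoxia library).

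The values that changed sign were all near 0. In hypoxia against control, Pias3 was -0.00163 with that filter, and ranged from -0.0498 to 0.162 with a library left out. With rSRGN against hypoxia, Socs3 was 0.000717 by DESeq2 and 0.00111 by RLE scaling (-0.0878 to 0.0672 with a library left out), Lifr was -0.00859 by library size alone (-0.107 to 0.200), and the Il6ra ratio ranged from -0.13 to 0.05 on the log2 scale. With rSRGN against control, Il6st was -0.0382 with that filter (-0.0376 to 0.0471 with a library left out), and Pias3 ranged from -0.101 to 0.00255.

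Same-numbered libraries did not deviate together (correlations from -0.0374 to 0.0215), so the replicate number was not taken as a pairing. With it as a block, 5, 1 and 7 of the 10 genes were called in the 3 comparisons, and Il6st with rSRGN against control was -0.000734. Ratios over 3 libraries a group cannot pass 0.05 in the exact test, and genes under 1 CPM rest on few counts.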
